A study of Caenorhabditis elegans with 2 samples.

Results

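Heterochronic genes set the order of cell fates through the larval stages of the nematode Caenorhabditis elegans, and 8 of them were examined here for DNA bound by the protein ROW-1. The 8 genes, lin-14, lin-28, lin-29, lin-41, lin-42, lin-46, hbl-1 and daf-12, were listed by name among 19973 nuclear protein-coding genes. For each, every ChIP-seq call was taken whose summit lay between 5 kb upstream of the gene and its end, a stretch called the window below. They were chosen by name, with the number and signal of the calls at them known, so their counts, signals and positions are a description and were not tested.

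Chromatin immunoprecipitation with an antibody against GFP was done on whole hermaphrodites of strain OP510, genotype unc-119(tm4063) III; wgIs510, in which row-1 (F37D6.2) was expressed with a C-terminal GFP-FLAG tag. The animals were L4 larvae, 48 h after synchronization as starved L1 larvae, in 1 group of 2 biological replicates. There was no contrast of conditions, and neither a control library nor another tagged protein was examined here, so signal that open chromatin yields with any tagged protein cannot be told apart from ROW-1 binding. Whole animals mix all cell types, so a weak signal in many cells and a strong one in few cells cannot be told apart. The deposited values were lists of calls, each with a signal that is the authors' own value. The read depth behind them is unknown.

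The pathway works as a chain of switches. LIN-14 and LIN-28 hold cells in early larval fates. The microRNA lin-4 lowers both, and the let-7 family of microRNAs later lowers HBL-1 and LIN-41, which frees LIN-29 to start the adult programme of the skin. LIN-46 acts below LIN-28, LIN-42 is the worm relative of the clock protein Period, and DAF-12 is the steroid hormone receptor that couples these switches to growth conditions.

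ROW-1 peaks were present at 7 of the 8 genes. The optimal list, which held 1574 peaks passed by the submitters' reproducibility analysis, had a summit in 7 of the 8 windows, against 2497 of all 19973 protein-coding genes (12.5%). The exception was lin-29, the last gene of the chain. Long windows catch more summits by their length: 2 of 2 of these genes with windows under 10 kb had one, against 11% of such genes, 2 of 2 with windows of 10 to 20 kb, against 19%, and 3 of 4 with windows of 20 kb or more, against 29.0%. The 8 windows held 12 optimal summits in 146 kb, or 81.9 per Mb, against 15.5 per Mb over the nuclear genome. At the genome's mean density the same windows would hold 2.27 summits, and at the density of each gene's own chromosome 2.56.

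**Figure D1:**
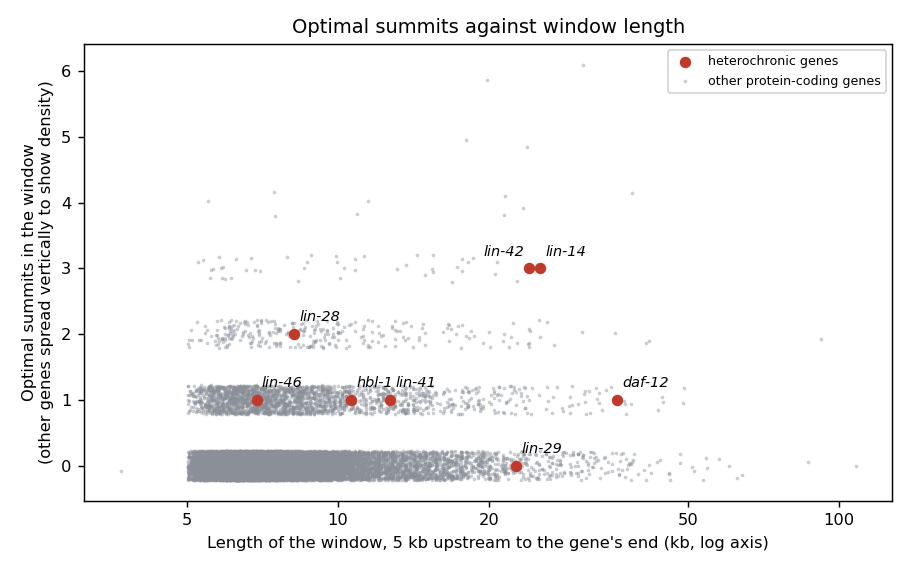
Number of optimal summits in each gene's window against the window's length in kb on a log axis, with the 8 heterochronic genes in red and the other protein-coding genes in grey, spread vertically within each whole number. lin-14 and lin-42 lie at 3 summits, lin-28 at 2, and lin-29 at 0.

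Most of the 12 summits of these genes lay outside promoters as defined here. Promoters were taken as the 500 bp before and the 200 bp after each 5' end that the annotation gives for a protein-coding gene. Of the 12 summits, 2 (16.7%) were at a promoter, against 727 of the 1541 other nuclear optimal summits (47.2%). Introns held 6 of the 12 (50%), against 262 of the 1541 others (17%), and a coding exon held 1 (8.33%), against 16 others (1.04%). The remaining 3 (25%) were intergenic, against 518 others (33.6%). The intron and coding-exon summits all lay in long genes, lin-14 (20.3 kb), lin-42 (19.1 kb) and daf-12 (31.0 kb). The other summits were not matched for gene length. The lin-28 summit 557 bp upstream fell just outside the promoter limits. With a promoter from 1000 bp upstream to 500 bp downstream, 4 of the 12 lay at a promoter of their own gene, against 1 with the limits above. Inside the gene itself, from its 5' end to its 3' end, 4 of the 8 genes had an optimal summit, against 1.88% of all protein-coding genes. Among the genes of 15 kb or more the counts were 3 of 4, against 18.6% of such genes.

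**Figure D2:**
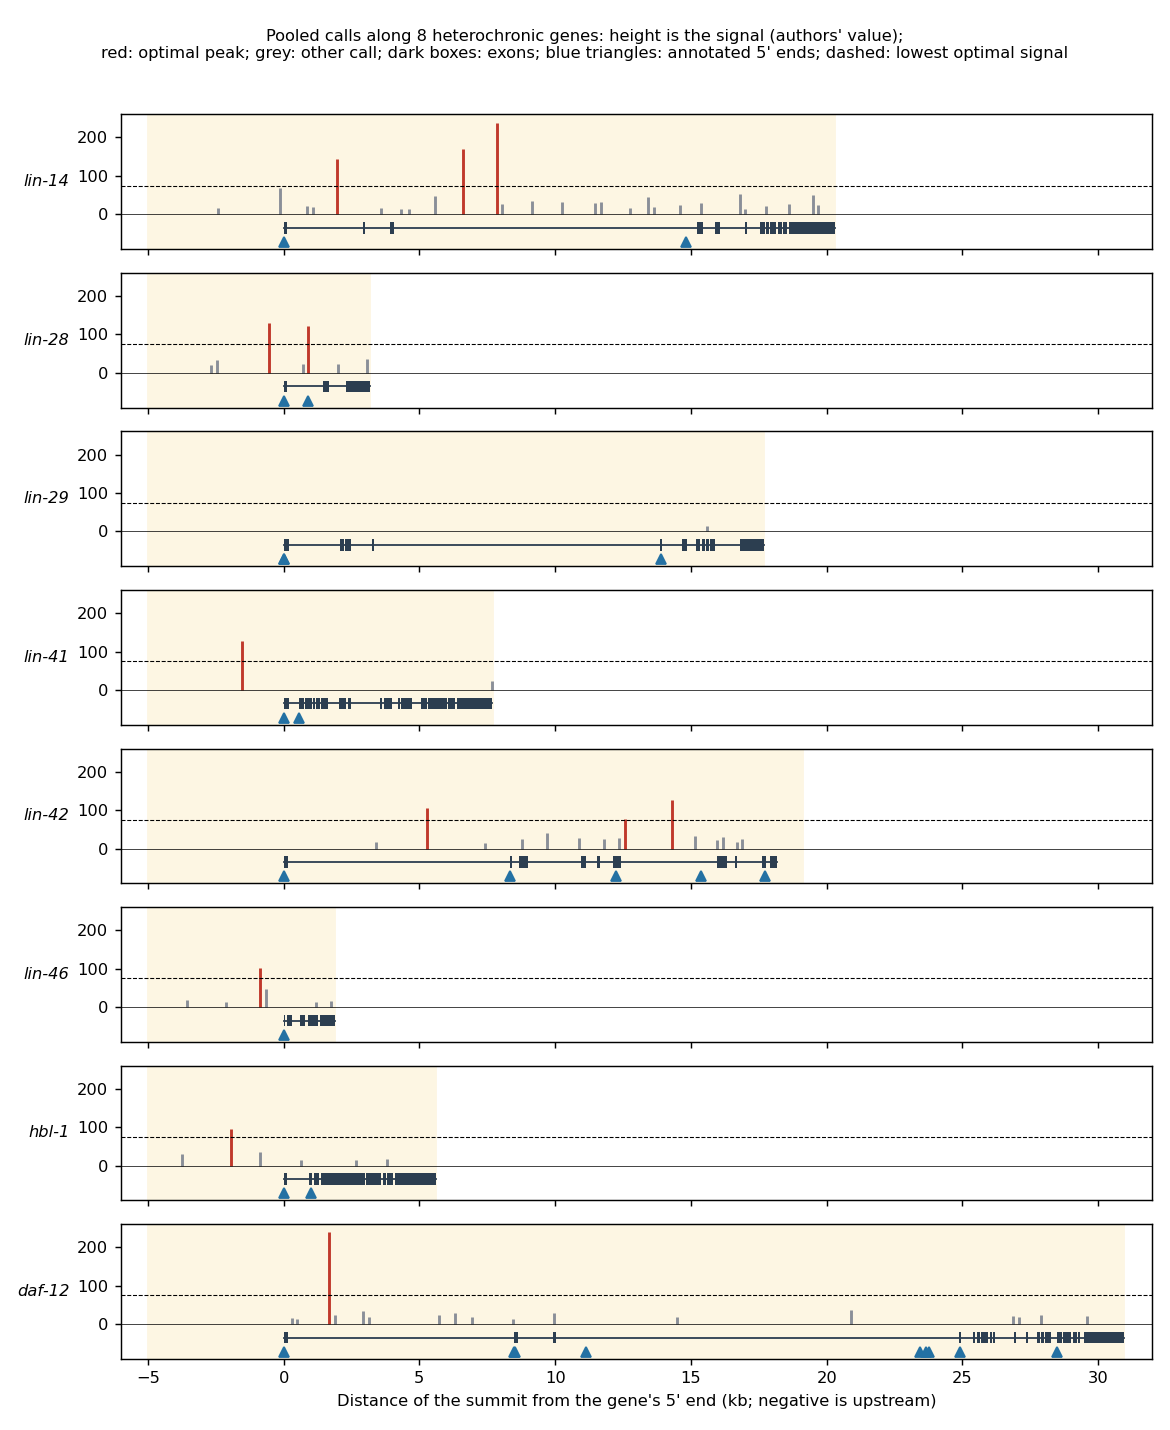
Pooled calls along the 8 genes, drawn by the distance of each summit from the gene's 5' end in kb, with bar height as the authors' signal. Shading marks the window, red bars the optimal peaks, grey bars the other calls, dark boxes the exons of the longest transcript, blue triangles all annotated 5' ends, and the dashed line the lowest optimal signal of 74.8. The tall bars of lin-14, lin-42 and daf-12 stand inside the genes, those of lin-41, lin-46 and hbl-1 upstream.

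Signals at these genes were those of ordinary optimal peaks. The 12 peaks had signals from 78.1 to 239.7 with a median of 127, against 74.8 to 1720 with a median of 114 in the other nuclear optimal peaks. The optimal list was the top of the pooled list: all 1574 optimal peaks were the 1574 strongest of the 30000 pooled calls. Among the 8 genes the weakest summit inside that limit had a signal of 78.1 (lin-42), and the strongest one outside it 67.9 (lin-14). By the strongest call, the order was daf-12 (239.7), lin-14 (237), lin-28 (129.7), lin-41 (128), lin-42 (126), lin-46 (100.5), hbl-1 (94.7) and lin-29 (14.96). The order in replicate 1 was daf-12, lin-14, lin-42, lin-41, lin-28, lin-46, hbl-1 and lin-29, and in replicate 2 lin-14, daf-12, lin-28, lin-41, lin-42, hbl-1, lin-46 and lin-29. The leading pair thus changed places between the replicates, as did lin-42 with lin-28 and hbl-1 with lin-46, so neighbours within these pairs are not separated beyond the difference between replicates. lin-41 lay between lin-42 and lin-28 in both replicates.

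**Figure D3:**
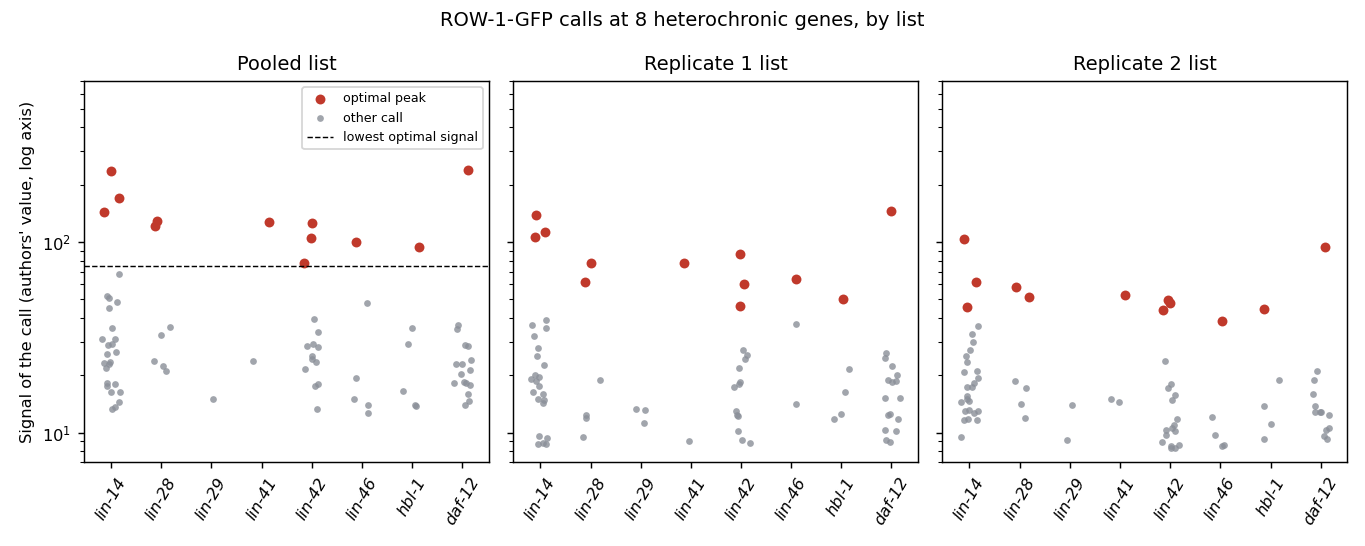
Signal of every call in the 8 windows on a log axis, by gene, in the pooled list, replicate 1 and replicate 2. Red points are optimal peaks or the strongest replicate calls that overlap them, grey points all other calls, and the dashed line the lowest optimal signal of 74.8. lin-29 has grey points only in all 3 panels.

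Both replicates had the 12 peaks among their strong calls. Each of the 12 overlapped a call that ranked among the 1574 strongest of replicate 1 and one among the 1574 strongest of replicate 2. The optimal list was itself derived from the replicate and pooled lists. Of the 1541 other nuclear optimal peaks, 1539 overlapped a call of any strength in both replicates. Their share among the 1574 strongest of each replicate was not counted. Replicate 1 signals were 1.04 to 2.34 times those of replicate 2 with a median of 1.49, and the median over 1539 other optimal peaks was 1.43. The scale of the signals is unknown, and the source of this difference was not tested. The summits in the replicates lay 11 to 118 bp apart, with a median of 46.0 bp. Over all strengths, the windows held 81 pooled calls, of which 56 overlapped a call in both replicates, 24 a call in 1 replicate and 1 a call in neither. Some pooled calls overlap one another, as at lin-14 and daf-12, so they are not all separate sites. Overlapping pooled calls can share the same replicate call. The same shares over all pooled calls were not counted. These input lists hold background as well as peaks, by the submitters' own description.

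**Figure D4:**
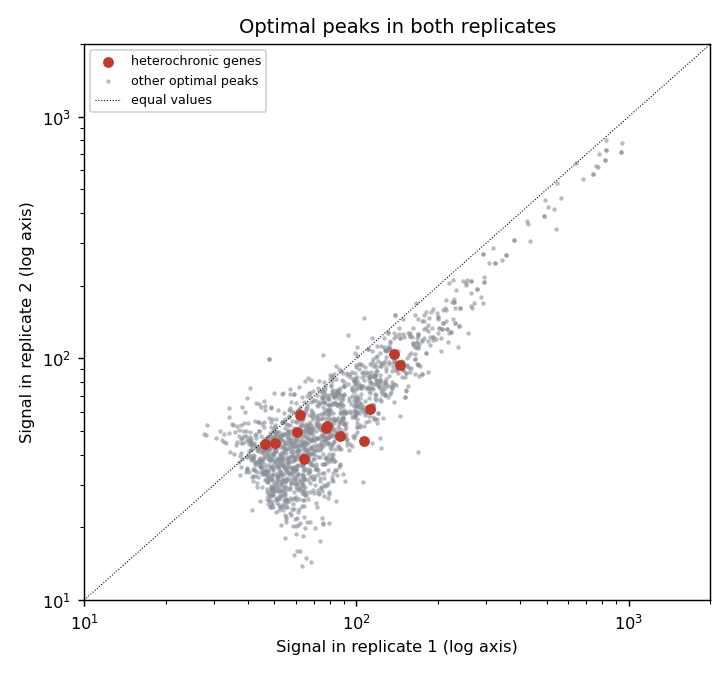
Signal of each optimal peak in replicate 1 (x) and replicate 2 (y), both on log axes, as the strongest overlapping call in each list. The 12 peaks of the heterochronic genes (red) lie within the cloud of other optimal peaks (grey), below the dotted line of equal values.

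To read the sequences printed below, the 6-base words most often gained at ROW-1 summits were found on the 1541 other optimal peaks, as the words whose share within 50 bp of the summit most exceeded the share in flanks of the same total length that began 250 bp away. The first 5 were taken, with both strands merged. The leading word was GAGAGA, followed by AGAGAG, which overlaps it in a GA repeat. The third in order was CGTCTC, whose other strand reads GAGACG. It was followed by GACGCA, which overlaps that strand by 4 bases, and the last was the word ACGCAG, which is GACGCA moved by 1 base. Within 50 bp of the summit, GAGAGA was held by 3 of the 12 summits (25%), against 28.9% of the others and 6.94% of their flanks. GACGCA was held by 2 of the 12 (16.7%), against 18.8% of the others and 2.27% of their flanks. At least 1 of the 5 words was held by 6 of the 12 (50%), against 807 of 1541 (52.4%). For comparison, stretches of 101 bp centred 100 bp upstream of all protein-coding genes held GAGAGA in 9.03% and GACGCA in 3.24%. A match is a description of the letters and does not mark a binding site. In the sequences below, 101 bp centred on a summit, read 5' to 3' on the gene's strand from the RefSeq sequence of WBcel235 (ce11), capitals mark these 5 words.

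Early fates are set by lin-14, which encodes a nuclear DNA-binding protein and is the classic target of the microRNA lin-4. The gene (WBGene00003003) spans 11465560 to 11485871 on chromosome X, plus strand, and had 3 optimal summits, all in introns. The strongest lay 7849 bp downstream of the 5' end, at 11473409, with 237 in the pooled list (rank 194 of 1574), 138 in replicate 1 and 104 in replicate 2. The next lay 6595 bp downstream, at 11472155, with 171 in the pooled list, 112 in replicate 1 and 62.0 in replicate 2. Both were in intron 3 of 11, the gene's longest at 11174 bp, and were far from the annotated 5' ends of lin-14: the stronger lay 6952 bp upstream of the internal one. The stronger also lay 227 bp downstream of the 5' end of T25C12.6, an annotated noncoding RNA, but outside its exons. The last lay 1955 bp downstream, at 11467515 in intron 1, with 144 in the pooled list, 107 in replicate 1 and 45.6 in replicate 2. It was also 15 bp inside the 5' end of T25C12.7, an annotated noncoding RNA on the opposite strand. The intron 3 summits are shown because they carry the strongest lin-14 signals. They lie at chrX:11473359-11473459 and chrX:11472105-11472205, plus strand.
lin-14 summit at 7849 bp: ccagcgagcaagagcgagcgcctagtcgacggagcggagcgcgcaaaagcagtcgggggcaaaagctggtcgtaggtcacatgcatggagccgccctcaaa
lin-14 summit at 6595 bp: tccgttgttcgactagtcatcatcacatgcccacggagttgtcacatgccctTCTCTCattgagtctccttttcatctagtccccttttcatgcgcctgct
The stronger holds none of the 5 words and has a GC content of 63.4%, against 43.6% in its flanks, and the weaker holds GAGAGA once.

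Calls were dense along the rest of lin-14. Its window held 27 pooled calls, 1.07 per kb. The median was 0.182 per kb over all protein-coding genes and 0.325 per kb in windows of 20 kb or more. Of the 404 genes with windows of 20 kb or more, 23 (5.69%) had at least as many. Of the 27, 20 overlapped calls in both replicates. Some of the 27 overlap one another and can share a replicate call, so they are not all separate sites. The gene start itself had a call below the optimal list, 129 bp upstream of the 5' end, with 67.9 in the pooled list (rank 1810 of 30000), 36.7 in replicate 1 and 32.9 in replicate 2. Calls of 51.8 and 50.9 followed at 16803 bp and 19493 bp, in an intron and an exon near the 3' end, and one of 48.5 at 5583 bp. The windows held 3 optimal summits in 2 of these 4 long genes, lin-14 and lin-42, against 3 or more in 2.72% of all genes with windows of 20 kb or more.

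lin-28 encodes an RNA-binding protein that blocks the maturation of let-7. The gene (WBGene00003014) lies at 8407630 to 8410804 on chromosome I, minus strand, and had 2 optimal summits, 1 on each side of its 5' end. The upstream one, at 8411361, lay 557 bp from the 5' end and had a signal of 129.7 in the pooled list, 77.3 in replicate 1 and 51.4 in replicate 2. The other, at 8409905, lay 899 bp downstream, with 122 in the pooled list, 62.1 in replicate 1 and 58.2 in replicate 2. It was in intron 1 of the longer transcript and 15 bp downstream of the 5' end of the shorter one, the closest approach of any of the 12 summits to a 5' end of its own gene. The pair were thus near both annotated starts of lin-28. Both summits also fell in the window of F02E9.7, and the second in that of F02E9.3.

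lin-41 encodes a TRIM-NHL protein that represses target mRNAs and is itself a target of let-7. Its 1 optimal summit, at 9344025 on chromosome I, lay 1529 bp upstream of the 5' end of the gene (WBGene00003026, 9334800 to 9342496, minus strand). The signal was 128 in the pooled list, 78.0 in replicate 1 and 52.5 in replicate 2. No 5' end of another coding gene was nearer. The 12.7 kb window held just 1 more pooled call, of 23.7 at the gene's end, so the upstream peak stood nearly alone.

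lin-29, which encodes the zinc-finger transcription factor of the larval-to-adult switch, was the gene without a peak. It spans 11917642 to 11935343 on chromosome II (WBGene00003015, minus strand), and its 22.7 kb window held 1 pooled call. That call lay 15575 bp downstream of the 5' end with a signal of 14.96 (rank 23786 of 30000), where the lowest pooled signal was 12.4. Replicate 1 had its strongest call there with 13.3, and the strongest of replicate 2, 14.04, lay elsewhere, 11160 bp downstream. Windows of 20 kb or more with 1 pooled call or none were 7.92% of such genes. With the depth unknown, this says that no peak was detected at lin-29, not that ROW-1 was absent.

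hbl-1 encodes a zinc-finger repressor related to fly Hunchback that holds back later fates, and lin-46 encodes a gephyrin-like protein that counters it. The hbl-1 summit, at 5820193 on chromosome X, lay 1949 bp upstream of the gene (WBGene00001824, 5822142 to 5827755, plus strand). Its signal was 94.7 in the pooled list (rank 1099 of 1574), 50.1 in replicate 1 and 44.7 in replicate 2. The summit was inside F13D11.20, an annotated noncoding RNA, 126 bp from its 5' end. A further optimal peak of 93.7 lay just outside the window, 5649 bp upstream of hbl-1. The sequence at chrX:5820143-5820243, plus strand, is shown as the only optimal summit of hbl-1 inside the window.
hbl-1 summit at 1949 bp upstream: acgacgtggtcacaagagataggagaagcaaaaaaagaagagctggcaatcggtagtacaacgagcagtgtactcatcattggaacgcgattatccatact
It holds none of the 5 words.

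The lin-46 summit could belong to a neighbour. It lay 870 bp upstream of lin-46 (WBGene00003031, 12968855 to 12970730 on chromosome V, plus strand), at 12967985, and 3 bp upstream of R186.8, which is transcribed the other way. The windows of 4 other coding genes, hrg-9, R186.3, pnn-1 and R186.8, held it too. Its signal was 100.5 in the pooled list (rank 993), 64.3 in replicate 1 and 38.4 in replicate 2. The sequence at chrV:12967935-12968035, plus strand, is shown because it holds a word of each kind, a GA repeat and GACGCA, at opposite sides of the summit.
lin-46 summit at 870 bp upstream: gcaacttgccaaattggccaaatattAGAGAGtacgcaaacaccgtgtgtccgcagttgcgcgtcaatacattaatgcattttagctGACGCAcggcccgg
By the nearest 5' end of a protein-coding gene this peak belongs to R186.8, and 11 of the 12 summits belong to the heterochronic gene itself.

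lin-42, whose transcripts rise and fall with each moult, had 3 optimal summits in the body of the gene (WBGene00018572, 1233236 to 1252359 on chromosome II, minus strand). The strongest lay 14306 bp downstream of the first 5' end, at 1238053 in intron 6 of 9, with a signal of 126 in the pooled list, 86.8 in replicate 1 and 47.7 in replicate 2. It was 1084 bp upstream of an internal 5' end. The next lay 5265 bp downstream, at 1247094 in intron 1, the longest at 8173 bp, with 106 in the pooled list, 60.6 in replicate 1 and 49.5 in replicate 2. That summit was inside F47F6.15, an annotated noncoding RNA, 59 bp from its 5' end. The last lay 12575 bp downstream, at 1239784, in a coding exon of another isoform and 317 bp downstream of an internal 5' end. Its signal was 78.1 in the pooled list, 46.1 in replicate 1 and 44.3 in replicate 2, close to the limit of the list. The annotation gives lin-42 5 separate 5' ends, and no optimal summit lay within 500 bp upstream of one. Both sequences below are intronic, at chrII:1238003-1238103 and chrII:1247044-1247144, minus strand, and are shown because they contrast in the 5 words.
lin-42 summit at 14306 bp: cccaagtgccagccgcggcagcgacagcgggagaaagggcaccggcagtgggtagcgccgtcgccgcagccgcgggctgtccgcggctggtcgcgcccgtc
lin-42 summit at 5265 bp: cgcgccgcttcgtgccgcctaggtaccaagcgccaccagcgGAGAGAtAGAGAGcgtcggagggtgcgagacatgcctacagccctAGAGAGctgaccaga
The first holds none of the 5 words and the second holds GAGAGA and AGAGAG. Noncoding RNA exons held 3 of the 12 summits (25%), at lin-14, hbl-1 and lin-42, against 216 of the 1541 others (14%).

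daf-12 carried the strongest peak of the 8 genes. The gene (WBGene00000908) spans 10635908 to 10666875 on chromosome X, plus strand, with 9 annotated 5' ends. Its 1 optimal summit, at 10637590, lay 1682 bp downstream of the first of these, in intron 1 of 8353 bp. The signal was 239.7 in the pooled list (rank 190 of 1574), 145 in replicate 1 and 93.7 in replicate 2. Among 17 pooled calls in the 36 kb window the next strongest had 36.7, at 20892 bp, so a single site in intron 1 stood above the rest of the gene. The sequence at chrX:10637540-10637640, plus strand, is shown because it holds 3 of the 5 words in one continuous run.
daf-12 summit at 1682 bp: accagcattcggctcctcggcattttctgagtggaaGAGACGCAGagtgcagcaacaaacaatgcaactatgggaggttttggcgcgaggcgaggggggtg
The 101 bp also hold 4 of the 5 most gained 8-base words, all overlapping that run, among them AGACGCAG, which 11.1% of the other summits held, against 0.779% of their flanks. None of the other 11 summits held any of those 5 longer words. At least 1 of them was thus held by 1 of the 12 summits (8.33%), against 279 of the 1541 others (18.1%). By the strongest signals in replicate 1 and replicate 2, the genes most like daf-12 were F58D5.5, with 148 in replicate 1 and 94.8 in replicate 2, and the neighbours ndk-1 and F25H2.6, which both had 147 and 96.0. Their distances from daf-12 over the 2 samples were 0.0345 for F58D5.5 and 0.0385 for each neighbour, in log2 units.

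Peaks were also found at microRNAs of the pathway and their cofactors. A list of 34 further genes of the pathway, chosen with earlier results of these data known, had an optimal summit in 15 windows. All 5 microRNA genes had one, against 18.4% of the 261 annotated miRNA genes. The summit at lin-4, the microRNA that lowers LIN-14, lay 401 bp upstream with 155 in the pooled list, 81.0 in replicate 1 and 77.7 in replicate 2, in a stretch that also falls in the windows of 3 coding genes. The summit at let-7 lay 1864 bp upstream with 162 in the pooled list, 99.3 in replicate 1 and 60.9 in replicate 2, and also fell in the windows of C05G5.2 and C05G5.7. The annotated let-7 gene is longer than that of lin-4, with windows of 6.73 kb and 5.09 kb. The 2 distances are thus counted from gene models of unlike length. mir-48 and mir-241, neighbours of the let-7 family, share their strongest peak of 238. mir-84 had 141.

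Among cofactors of microRNAs and other RNA regulators, 6 of 10 had a summit. The strongest were at nhl-2, a TRIM-NHL cofactor of microRNA silencing, at 555 (306 for replicate 1, 248 for replicate 2), and puf-9, a Pumilio-family repressor, with 461 (291 and 169.5). ain-1, the GW182 protein of the silencing complex, had 229.9 (138 and 106), and lin-66 had 193 (109 and 87.6). These 4 signals exceeded those of 6 of the 8 main genes, and nhl-2 and puf-9 exceeded all 8. The peaks of nhl-2, puf-9 and ain-1 also fell in the window of 1 neighbouring gene each. Transcription regulators and clock genes had a summit in 4 of 10 cases, among them din-1, a corepressor of DAF-12, with 5 summits led by one of 172. Genes of steroid hormone synthesis had 0 of 3, and stage-specific outputs such as the adult collagen gene col-19 had 0 of 6. Of the 28 protein-coding genes in this list 9 had a summit (32.1%), beside the 12.5% of all protein-coding genes. The 28 were not matched for window length. Over all protein-coding genes the share was 11% for windows under 10 kb, 19% for 10 to 20 kb and 29.0% for 20 kb or more.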

How the data were processed

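ChIP-seq calls of 2 biological replicates of 1 group were analysed on ce11. Per the deposited file listing, each replicate and the pooled data have a list of peaks and background made as input for a reproducibility (IDR) analysis, and the optimal list was derived from these 3. The signal value of each call is as the authors deposited it. For its scale, the aligner, the peak caller and the IDR threshold, none of the labels or headers used has an entry, and no read counts were used, so no depth or interval is given. Replicate numbers come from the labels, which call the replicates biological.

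Summits (start plus offset, counted from 1) were set against Ensembl release 115 gene models of WBcel235, and sequences were read from RefSeq's copy of it. No call ran past a chromosome end, and the last on X ended at 17718942, its length. No coordinate was converted from ce10, whose optimal list gave only its lowest signal. The strongest replicate call overlapping a peak by 1 bp was its counterpart. let-7 was matched by its locus tag. All 34 pathway genes were matched. Python 3.11.15, numpy 2.4.6 and pandas 2.3.3 were used.

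The members and lists were chosen with earlier results of these data known, and no test was made. Named were the members with up to 4 summits each, lin-4, let-7, the 6 pathway genes with the strongest summits, the 3 genes most like the strongest member, and 5 other genes taken by the number of summits, with ties, as at the fifth place, settled by summed signal. A few others (mir-84, col-19) were named after their values were seen. Window counts and the word ranking were tested on simulated data and recovered the planted answer in 3 of 3 rounds each, over 19973 genes and 2080 words.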

Additional observations from a re-analysis of the deposited data

How the results depend on the processing

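Of 46 alternatives, 32 left the value within 1.5 times of the reported one or, for a signal, within 1 SD of the replicates. The count of heterochronic genes with a summit was 7 with windows from 2 kb or 10 kb upstream, by peak overlap, and with 2 times as many pooled calls, 6 by nearest 5' end (without lin-46) and 5 with the 787 strongest of the list (without lin-46 and hbl-1). It was 4 with the gene body only and 4, with 4 summits, with the upstream part only. Over all protein-coding genes the count was 375 with the gene body only, 1323 with the 787 strongest, 4169 with 2 times as many pooled calls and 1232 by nearest 5' end. With a promoter from 1000 bp upstream to 500 bp downstream, 4 summits lay at a promoter of their own gene, where the main window had 1. Any of the first 5 words was held by 10 of the 12 summits within 100 bp, against 67.4% of the 1541 other optimal summits. Any of the first 5 8-base words was held by 1 of the 12, against 18.1% of the others. With 0.5 times as many calls, 4 genes had a call in both replicates.

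With 1 replicate alone (its 1574 strongest calls), the genes with a summit stayed at 7 and the summits were 12 to 14. All genes with a summit were 2389 to 2511, own-promoter summits 1 to 2, and summits with a word 5 to 7. The median of the strongest signals was 51.0 to 77.6, on scales that are not known. The optimal list on ce10 held 2157 peaks down to a signal of 60.5. In an alternative added after the data were seen, the pooled calls at or above that signal gave 7 genes and 13 summits. The share of all protein-coding genes with a summit was then 16.2%. No paired analysis was possible because there is 1 group. With the depth unknown, a gene without a call is not shown to be unbound.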

Other observations

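The distance to the next optimal summit outside the window differed widely among these genes. It was counted from the gene's 5' end. For lin-14 it was 165778 bp on the upstream side and 56717 bp on the downstream side. For lin-42 these distances were 68253 bp and 117698 bp, for daf-12 66913 bp and 130411 bp, and for lin-46 98700 bp and 34631 bp. For lin-41 they were 30775 bp and 34770 bp, for lin-28 16057 bp and 18032 bp, and for hbl-1 5649 bp and 19169 bp. At lin-29, the gene without a peak, they were 25474 bp and 60453 bp, within the range of the other 7 genes. No genome-wide distribution of these distances was computed.

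The summit in intron 6 of lin-42 was rich in G and C. Its 101 bp had a GC content of 77.2%, above the highest value among the 1541 other optimal summits (73.3%), and 39.6% in its flanks. Over all 12 summits the median GC content was 50%, against 49.5% in the others, and the medians of the flanks were 40.1% for the 12 and 35.6% for the others.

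Windows with many optimal summits were rare. Of all protein-coding genes, 59 (0.295%) had 3 or more, lin-14 and lin-42 among them. Of the 13 genes with 4 or more, ppfr-1 and zfp-1 had 6 each and vps-4 and din-1 had 5 each. The rest tied at 4, and of these pqn-41 had the largest summed signal (925).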
